A study of Homo sapiens with 4 samples.

Results

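The small nucleolar RNA (snoRNA) host genes GAS5, ZFAS1, SNHG1, SNHG5, SNHG6, SNHG8, SNHG12, SNHG15, SNHG16 and SNHG29 were described in HEK293T cells, a line derived from human embryonic kidney and transformed with adenovirus DNA, to which the SV40 large T antigen was later added. They are spliced noncoding genes with snoRNA genes in their introns, and they were chosen by symbol from the gene names of the deposited table. All 10 had a row of their own, out of 51740 rows in the table and 14836 rows annotated as lncRNA. The cells were wildtype and formaldehyde crosslinked, and RNA was taken from a Nuclear and a Cytoplasmic fraction, with 2 biological replicates of each. The 4 libraries were depleted of ribosomal RNA and sequenced with strand information. All groups shared the line, the genotype and the crosslinking, and nothing in the design set a treated group against an untreated one.

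The level used here was the authors' mean normalized count, which averages a gene's counts over the 4 libraries after scaling each library by a size factor. It pools both fractions, so it gives a level averaged over the libraries and not where in the cell a host RNA was. Each library has equal weight after scaling, whatever share of the cell's RNA its fraction held. The mean is therefore not an amount per cell. Values of single libraries were not analysed here, and for that reason no SD, no replicate count and no test stands beside a level. Reads in exons and introns had been counted together, so unspliced host RNA contributes to each value.

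snoRNAs guide the chemical modification of ribosomal and spliceosomal RNA. Those of the box C/D family direct methylation of the ribose, and those of the box H/ACA family direct the conversion of uridine to pseudouridine. Most human snoRNAs are not transcribed from promoters of their own but are cut out of the introns of a host transcript after splicing. The joined exons of a noncoding host are left over, and several of them are known to be engaged by ribosomes and degraded quickly by nonsense-mediated decay. Many hosts begin with a terminal oligopyrimidine tract, the start that they share with ribosomal protein genes.

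The hosts carried very different numbers of snoRNA genes. In the RefSeq annotation of GRCh38.p14, 38 snoRNA genes lay within the 10 host genes, 31 of them named as box C/D and 6 as box H/ACA, and 1 had no family name. GAS5, a gene first found as a transcript of growth-arrested cells, held 11. SNHG1 held 9, SNHG12 held 4, and ZFAS1, SNHG16 and SNHG29 held 3 each. SNHG5 held 2, and SNHG6, SNHG8 and SNHG15 had 1 each. The snoRNA genes were 48 to 134 bases long. GENCODE 44 placed 25 snoRNA genes on the strand of these hosts and listed none within GAS5. When each host was represented by its canonical GENCODE transcript, 36 of the 38 RefSeq snoRNA genes lay wholly in an intron. The exceptions were SNORA9 of SNHG15, which lay in an exon with all of its 133 bases, and SNORA103 of GAS5, which reached 2 bases into one. Against the exons of all annotated isoforms together, the basis of the levels per kb below, the tally was the opposite, and 35 of the 38 shared bases with an exon.

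**Figure D1:**
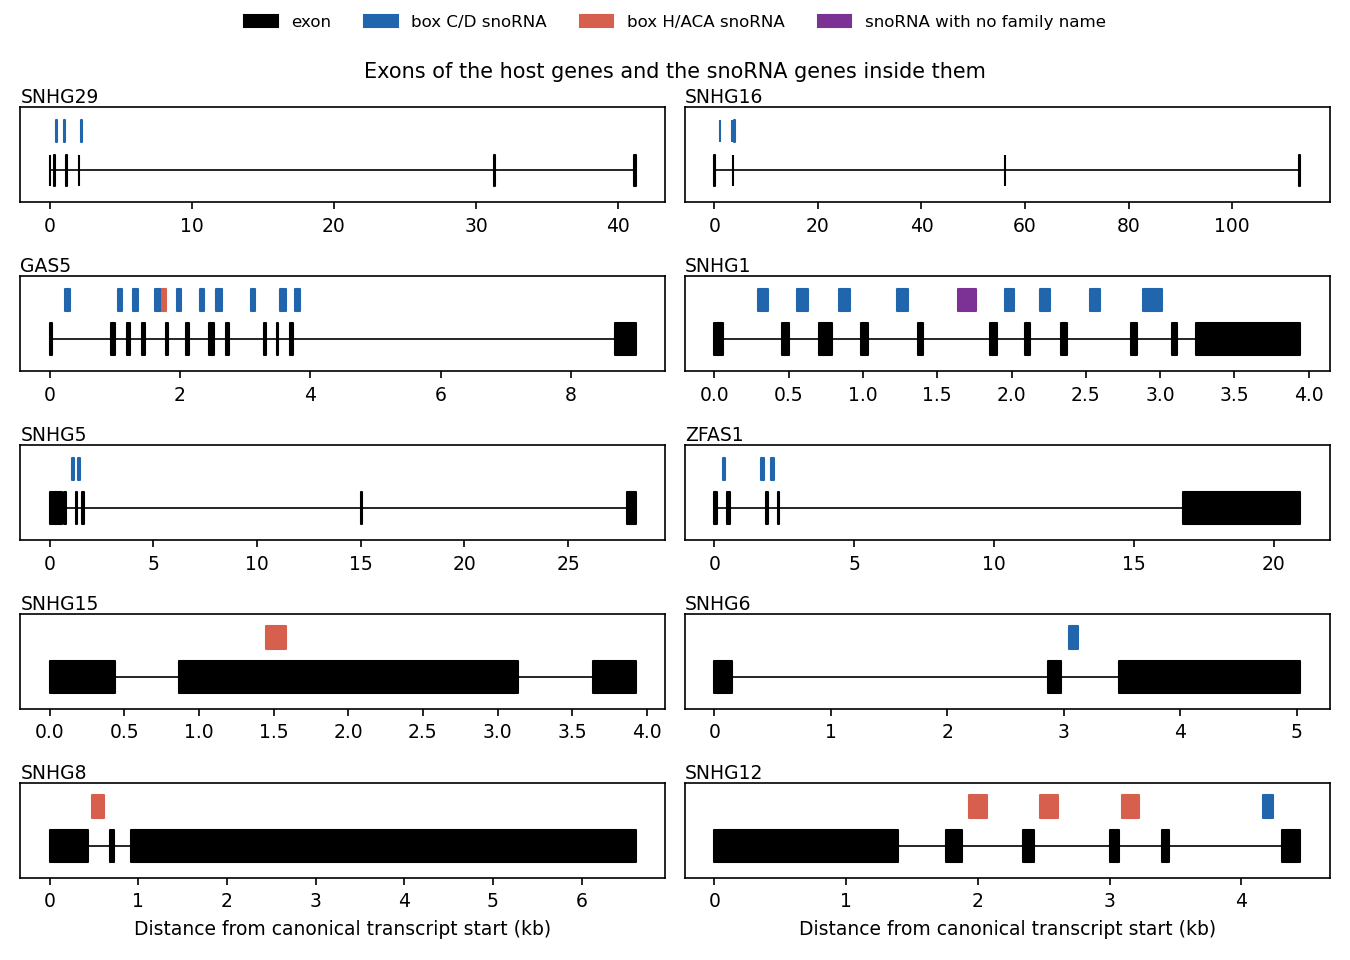
Exons of the canonical transcript of each host (black blocks, joined by a line for introns) and the RefSeq snoRNA genes inside it (coloured blocks above), against the distance in kb from the transcript's start. Each panel has its own scale, and panels run from the host of the highest mean (SNHG29) to that of the lowest (SNHG12). In GAS5 and SNHG1 most introns hold a snoRNA, whereas in SNHG29 and SNHG16 all 3 lie near the start of a long gene.

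The snoRNAs of the 2 hosts with the highest means are shown to let their families be compared. SNHG29 lies on chromosome 17 from 16438767 to 16480249 on the plus strand of hg38. Its snoRNAs, all of the C/D family, are given 5′ to 3′ as in GENCODE 44, with capitals for the letters TGATGA (first match, as in box C) and CTGA (last match, as in box D).
SNORD49B: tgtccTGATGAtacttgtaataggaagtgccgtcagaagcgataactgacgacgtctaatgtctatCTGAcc
SNORD49A: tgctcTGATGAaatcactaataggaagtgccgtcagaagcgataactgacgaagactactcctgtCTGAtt
SNORD65: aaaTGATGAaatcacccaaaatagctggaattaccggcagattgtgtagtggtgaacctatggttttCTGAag
SNORD49A and SNORD49B shared an unbroken run of 35 bases, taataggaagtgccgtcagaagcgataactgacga, which began at base 18 of both. The longest run that SNORD65 shared with SNORD49A was 12 bases, and 6 of these were the box C letters themselves.

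SNHG16 lies on the plus strand of chromosome 17 as well, from 76557727 to 76670985. Its snoRNAs form the SNORD1 family, and capitals again mark the exact letters.
SNORD1C: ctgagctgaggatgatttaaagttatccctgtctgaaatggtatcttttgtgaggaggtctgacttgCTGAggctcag
SNORD1B: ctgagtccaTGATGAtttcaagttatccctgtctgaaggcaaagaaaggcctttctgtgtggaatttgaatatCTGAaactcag
SNORD1A: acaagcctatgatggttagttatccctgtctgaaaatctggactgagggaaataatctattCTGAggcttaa
The runs shared by any pair of these were 17 or 18 bases long and held agttatccctgtctgaa. Only SNORD1B had the exact letters TGATGA. Across the 18 box C/D sequences of the hosts that were searched, 11 held both motifs exactly, and no match here says only that these letters were not found.

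The H/ACA snoRNAs searched were longer than the box C/D ones searched. Their family is recognised by the letters ACA near the 3′ end. SNORA24 of SNHG8 and SNORA9 of SNHG15 are shown as the only snoRNA of their host, with ACA in capitals where it began within the last 8 bases.
SNORA24: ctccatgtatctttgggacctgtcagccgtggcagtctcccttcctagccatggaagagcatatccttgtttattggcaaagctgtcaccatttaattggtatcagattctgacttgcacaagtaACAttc
SNORA9: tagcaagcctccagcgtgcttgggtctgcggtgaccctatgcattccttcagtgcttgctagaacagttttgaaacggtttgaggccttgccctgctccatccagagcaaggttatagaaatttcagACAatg
ACA was found in this position in 4 of the 5 H/ACA snoRNAs searched, the exception being SNORA44 of SNHG12. SNORA16A of SNHG12, which GENCODE lists under 2 identifiers at the same place, was counted once. SNORA103 of GAS5, with 86 bases in RefSeq, was not among those searched.

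Expression of the hosts was placed first among noncoding genes. Per kb of annotated exons, all 10 hosts were in the highest 5% of the 9861 lncRNA genes that had a mean above 0 and an exon length in GENCODE 44. The median of these lncRNA genes was 2.24 normalized counts per kb, and the median host reached 269.1. SNHG16 stood highest among the hosts at 1629 per kb, in place 12 of the lncRNA genes. SNHG29 followed at 1585 in place 13. GAS5 had 790.8 per kb and place 26, and SNHG1 had 501.2 and place 42. SNHG6, with 269.2 per kb, and SNHG15, with 269.1, took places 92 and 93. The lowest hosts were ZFAS1 at 156.1 per kb, SNHG5 at 128.9, SNHG12 at 102.5 and SNHG8 at 80.01, the last in place 452.

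**Figure D2:**
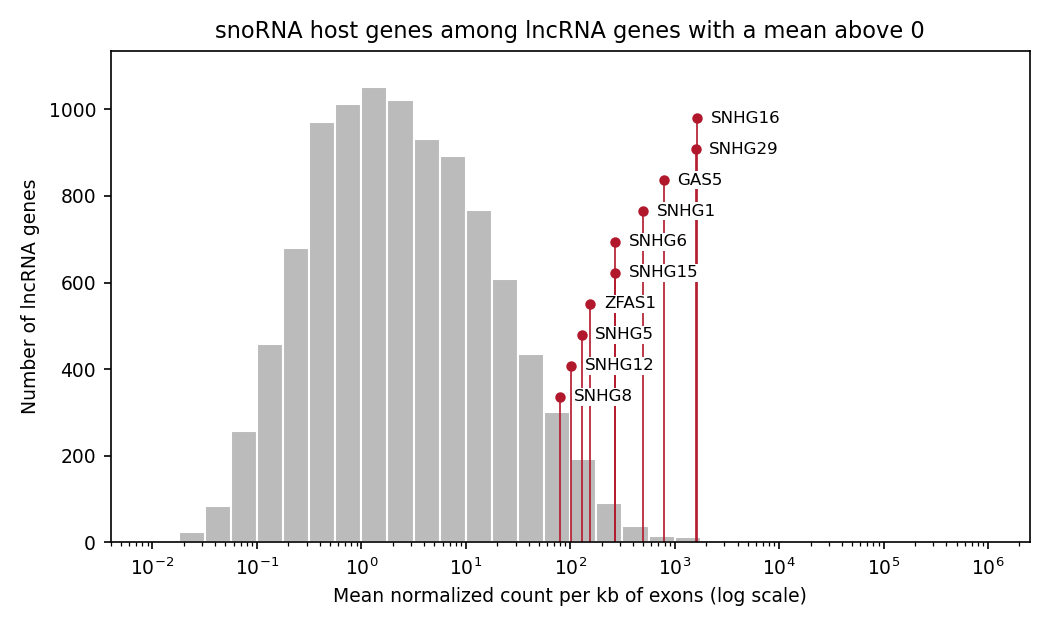
Number of lncRNA genes (grey bars) by mean normalized count per kb of exons, on a log axis, with the 10 snoRNA host genes marked in red; the height of a red line only separates the names. The hosts run from 80.01 (SNHG8) to 1629 (SNHG16) per kb, to the right of the bulk of the class, whose median is 2.24.

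The counts behind these levels were large. Each level rests on counts in 4 libraries, and the value that a single count adds to the mean could be read from the lowest rows of the table. It was 0.186, 0.210, 0.293 or 0.331, depending on the library. All 9806 means above 0 and up to 2 were whole-number combinations of these 4 steps within 5e-08. SNHG29 therefore rested on 42813 to 76081 counts in all. The least counted host, SNHG12, rested on 1320 to 2345 counts. The relative counting error (1 standard error) was at most 0.483% for SNHG29 and at most 2.75% for SNHG12. This covers counting only. It leaves out the spread between replicates and the difference between the fractions, for which the authors' own comparison was not used here.

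By counting error alone, most neighbours in the order of levels per kb of exons could be told apart. These intervals leave out the spread between libraries and the choice of length. SNHG16 was 1.03-fold over SNHG29, with a 95% counting interval from 1.01 to 1.04. That order depended on the length. SNHG16 was below SNHG29 per kb of gene span (83.1 against 341.9) and above it with RefSeq spans (1240 against 448.0). SNHG29 was 2.00-fold over GAS5, and GAS5 1.58-fold over SNHG1. SNHG6 and SNHG15 could not be ordered, since their ratio was 1.00 with an interval from 0.946 to 1.06. ZFAS1 was 1.21-fold over SNHG5, SNHG5 was 1.26-fold over SNHG12, and SNHG12 was 1.28-fold over SNHG8. Several of these orders depended on the length too. With RefSeq spans SNHG8 (498.3 per kb) was above SNHG12 (98.3), SNHG5 (941.0) above ZFAS1 (117.1) and GAS5 (758.0) above SNHG29 (448.0). On that scale GAS5 stayed above SNHG1, and SNHG5 above SNHG12.

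On the scale of the deposited mean, with no length, the order was somewhat different. A longer gene can collect more counts, so places in this order do not compare levels of genes of unlike length. SNHG29 led with a mean normalized count of 14184, in place 6 of 9918 lncRNA genes with a mean above 0. Its neighbours in that order were MALAT1, an abundant nuclear lncRNA, at 17037 and PVT1, the lncRNA gene next to MYC, at 13499. SNHG16 came next to PVT1 at 9407, in place 8. GAS5 had a mean of 3900 in place 17, between WARS2-AS1 at 4252 and a gene without a symbol at 3796. Together SNHG29 and SNHG16 made up 67.2% of the summed means of the 10 hosts.

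The other 8 hosts covered a narrower range. SNHG1 had a mean of 1993, SNHG5 of 1625 and ZFAS1 of 1298. ZFAS1, which starts next to the gene ZNFX1 on the opposite strand, thus stood next below KCNQ1OT1, the imprinted antisense lncRNA, at 1313. As said, this order takes no account of length. SNHG15 had a mean of 1061 in place 103, SNHG6 of 680.2 in place 162 and SNHG8 of 529.2 in place 199. SNHG12 was lowest with 437.2 in place 235. SNHG8 stood between RAP2C-AS1 at 529.8 and NBR2 at 528.6, a difference smaller than its counting error. Even SNHG12 had a higher mean than 97.6% of the lncRNA genes with a mean above 0. The median lncRNA gene had a mean of 2.68 and the median host one of 1462.

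Without a length, too, all 10 hosts were in the highest 5%, which held 495 genes. The highest 1%, 99 genes, held SNHG29, SNHG16, GAS5, SNHG1, SNHG5 and ZFAS1, while SNHG15 in place 103 fell just outside. As a share of all lncRNA signal, the hosts together made up 2.10% of the summed means, or 0.544% when all genes were taken per kb of exons. That sum is itself dominated by few genes, because the 4 lncRNA genes with the highest means held 66.4% of it, and without these 4 the share of the hosts was 6.24%. Over all 32478 rows with a mean above 0, coding genes included, SNHG29 took place 112 and SNHG12 place 8960.

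The level per length depended on which length was taken, because the annotated models of these genes are unequal. SNHG16 spans 113 kb in GENCODE 44 but 7.59 kb in RefSeq, and its exons cover 5.10% of the longer span. SNHG5 spans 28.4 kb in the former and 1.73 kb in the latter. SNHG1 is compact at 3.98 kb, and the exons of all its isoforms together cover the whole gene, snoRNAs included. The same is true of SNHG15 at 3.94 kb and SNHG8 at 6.61 kb. Since introns were counted as well as exons, no single one of these lengths matches the count exactly.

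Per kb of gene span, SNHG1 was the highest host at 501.2 and SNHG5 the lowest at 57.1. On this scale SNHG16 fell to 83.1 per kb, within counting error of SNHG8 at 80.01. With the shorter RefSeq spans SNHG16 was again first at 1240 per kb, and SNHG12 was last at 98.3. Per kb of the canonical spliced transcript SNHG29 reached 32018 and SNHG8 was lowest at 85.8. Across the 6 lengths tried, GAS5 stayed between places 2 and 4 of the hosts and ZFAS1 between places 7 and 9. SNHG5 moved between places 1 and 10, and SNHG16 between places 1 and 7.

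**Figure D3:**
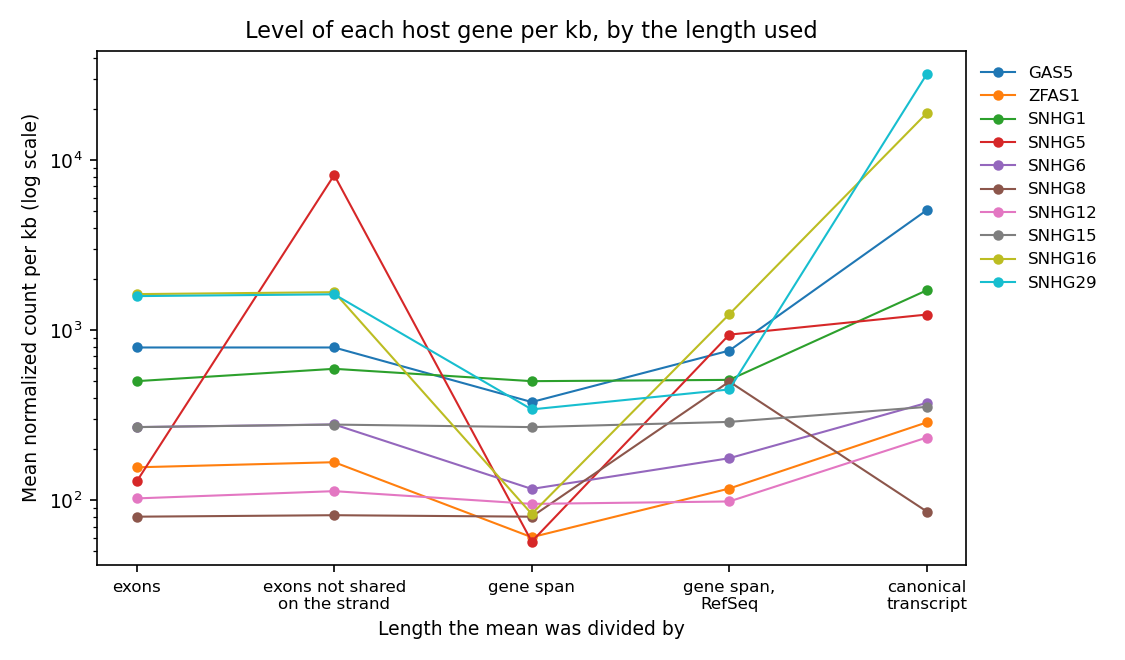
Mean normalized count per kb of each host (log axis) when the same mean is divided by 5 of the annotated lengths; lines join the values of a gene and carry no trend. GAS5 stays near the top throughout. SNHG5 goes from 57.1 per kb of gene span to 8166 per kb of exons that no other gene on its strand shares. The latter divides its whole mean by 0.199 kb.

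SNHG5, the host that moved most, shares nearly all of its annotated exons. A protein-coding gene on the same strand without a symbol covers 98.4% of its exons in GENCODE 44, which leaves 0.199 kb to SNHG5 alone. Place 1 of SNHG5 among the hosts arose only where its whole mean was divided by these 0.199 kb. With RefSeq spans SNHG5 took place 2 at 941.0 per kb. It took place 5 per kb of the canonical transcript, 8 per kb of exons and 10 per kb of gene span. That other gene had no row in the table, while SNHG5 had a mean of 1625. For the remaining hosts, at most 15.4% of exon bases were shared with a gene on the same strand, the highest share being that of SNHG1. The bases that SNHG1 shared were those of its own snoRNA genes.

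Genes on the opposite strand overlapped several hosts far more. PRSS12 lies over 79.8% of the exon bases of SNHG8, and LRRC75A over 77.8% of those of SNHG29. MCMDC2 covers 58.9% of the exon bases of SNHG6. All 3 of these genes kept rows of their own. Their means were 459.3 for PRSS12, 88.4 for LRRC75A and 11.6 for MCMDC2. PRSS12 was the only one near the mean of its host, since SNHG8 had 529.2. The study's methods give no strand setting for the counting. Whether reads of a gene on the opposite strand are part of a host's mean is therefore not known.

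None of the snoRNA genes inside the hosts could be measured from this table. Of the 38 in RefSeq and the 25 in GENCODE 44, 0 had a row. Symbols can mislead here. SNORD27, SNORD29, SNORD30, SNORD79 and SNORD81 did occur on 7 rows, but by identifier these were copies elsewhere in the genome. The copy named SNORD27, on chromosome 13 from 21139886 to 21139957, had a mean of 2.21, and the remaining copies were at 0. These 7 rows were left out of the account of the hosts.

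The same held for snoRNA genes in general when they lay in another gene on their own strand. Of 589 such snoRNA genes in GENCODE 44, 8 had a row, or 1.36% (95% Wilson interval 0.690% to 2.66%). Of 187 snoRNA genes that shared no base with another gene, all 187 had one. Of 159 that lay wholly within genes of the opposite strand, all 159 had one as well. The study's methods state that stretches covered by several genes were taken out before counting. Where the authors' annotation lists a snoRNA inside its host, that rule counts the shared bases for neither gene. Where it does not list the snoRNA, its bases stay with the host. GENCODE 44 listed no snoRNA within GAS5, nor SNORD29 and SNORD31 in SNHG1 or SNORD50A in SNHG5, and the authors' own annotation was not used here. Whether reads of these snoRNAs are part of the host's mean is therefore not known.

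**Figure D4:**
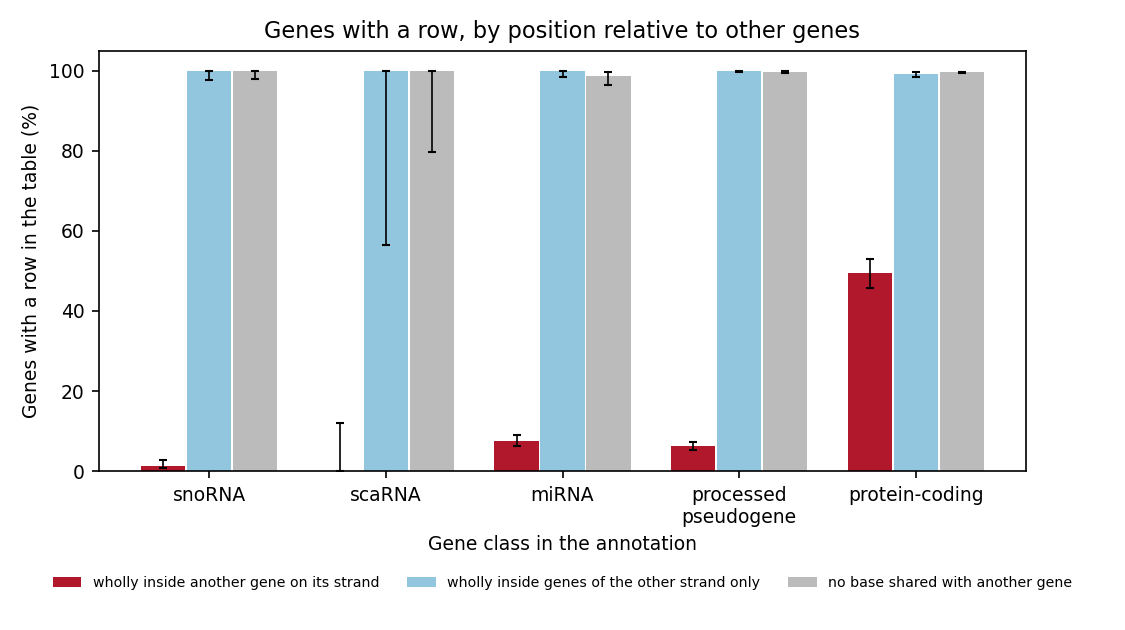
Share of GENCODE 44 genes that have a row in the table, for 5 gene classes and 3 positions relative to other genes; bars start at 0 and the lines are 95% Wilson intervals. Small genes inside another gene on the same strand have rows in 0% (scaRNA, the snoRNA-like RNAs of Cajal bodies) to 7.46% (miRNA) of cases and protein-coding genes in 49.4%, against at least 98.8% for genes of these classes inside genes of the opposite strand or apart from other genes.

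MicroRNA genes and processed pseudogenes showed the same split by strand. Within another gene on the same strand, 7.46% of 1368 miRNA genes and 6.16% of 1933 processed pseudogenes had a row. Within genes of the opposite strand only, 100% of 243 miRNA genes and 99.9% of 2962 processed pseudogenes had one. Protein-coding genes did so less fully, since 374 of 757 (49.4%) that lay wholly within another gene on the same strand had a row.

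The starts of the hosts were examined because a pyrimidine tract at the first base is a known feature of this gene class. RefSeq promoter sequences were given for 8 hosts, and SNHG6 and SNHG15 had none in the table used. Below, 10 bases before the annotated start and 20 from it onward are shown 5′ to 3′ on the strand of the gene (GRCh38.p14), so that base 11 is the start. Capitals mark a C followed by at least 4 pyrimidines and the pyrimidines after it. Where several such C lay within 10 bases of the start, the one nearest to it was marked, so that a pyrimidine may also precede the capitals.
GAS5, chr1:173869026-173869055, minus strand: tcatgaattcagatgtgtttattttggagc
ZFAS1, chr20:49278632-49278661, plus strand: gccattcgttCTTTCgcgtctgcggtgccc
SNHG1, chr11:62855866-62855895, minus strand: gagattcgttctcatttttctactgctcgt
SNHG5, chr6:85678714-85678743, minus strand: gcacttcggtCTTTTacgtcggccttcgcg
SNHG8, chr4:118278752-118278781, plus strand: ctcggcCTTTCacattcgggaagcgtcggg
SNHG12, chr1:28581854-28581883, minus strand: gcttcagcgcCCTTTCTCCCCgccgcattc
SNHG16, chr17:76557754-76557783, plus strand: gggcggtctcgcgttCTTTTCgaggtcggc
SNHG29, chr17:16438977-16439006, plus strand: cCTTTTgtgaggattgggatattccgactc
A run beginning within 10 bases of the start was found in 6 of these 8 hosts. The share was 33.3% of 27305 promoters of the same length in the whole RefSeq table. In SNHG29 the run lay wholly before the annotated start, and in SNHG16 it began 5 bases after the start. At the start of the canonical GENCODE transcript such a run was found in 4 of 10 hosts, against 18.2% of lncRNA genes. With at least 7 pyrimidines after the C, 1 of the 8 hosts had a run, against 9.08% of all promoters. The start base itself was such a C in ZFAS1, SNHG5 and SNHG12, as in 4.04% of all promoters. In SNHG12 the run went on for 11 bases from the start, and the base before it was a C as well. GAS5 and SNHG1 had no match in this window. The RefSeq start of GAS5 lies 1.06 kb before that of its canonical GENCODE transcript and outside the GENCODE gene used for its length, and the RefSeq start of SNHG12 lies 1.11 kb after the canonical one. For the other 6 hosts the starts were at most 0.054 kb apart. These are matches of letters on the gene's own strand at annotated starts, and no initiation site was measured.

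The levels of the hosts were also set beside those of genes with related roles, each list by its median. The other noncoding snoRNA hosts were a list of 22 genes, of which SNHG3 and SNHG28 had no row under these symbols and SNHG18 was listed at 0. The 20 with a row had a median of 135.2 per kb of exons, between the levels of ZFAS1 and SNHG5. Without a length their median was 289.6, below the mean of SNHG12, the lowest of the 10 hosts, at 437.2. SNHG7 had the highest mean, 3412, or 697.4 per kb. Per kb of exons SNHG32 was highest at 963.0. Of these 20 genes, 8 had a higher mean than SNHG12.

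Coding hosts of snoRNAs, most of them genes of ribosomal proteins and translation factors, had far higher levels. Their median over 28 genes was 4458 per kb of exons, above the highest noncoding host on the same scale. The highest mean was that of EEF2, the translation elongation factor that moves the ribosome along the mRNA, at 133994, or 33323 per kb. The lowest mean was that of PPAN at 996.3, or 345.0 per kb. Per kb of exons TAF1D, a subunit of an RNA polymerase I initiation factor, was lowest at 178.6, between SNHG15 and ZFAS1.

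mRNAs of proteins that bind or assemble snoRNAs had median levels in the range of the noncoding hosts. The 4 core proteins of box C/D particles had a median of 832.8 per kb, near GAS5. Among them FBL, the methyltransferase fibrillarin, had the highest mean at 3732 and NOP58 the lowest at 2547. For the 4 core proteins of box H/ACA particles the median was 505.7 per kb, near SNHG1. NHP2 was highest with a mean of 3054 and GAR1 lowest with 221.2. The 9 assembly factors had a median of 249.4 per kb, from NUFIP1 with a mean of 246.7 to RUVBL2, a subunit of the R2TP chaperone complex, with 5377.

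Nonsense-mediated decay, which degrades several spliced host RNAs, was represented by 10 factors with a median of 226.5 per kb. SMG5 had the highest mean at 5971 and UPF3B the lowest at 596.4. All genes of the protein lists had a mean above 0. The cell line was checked by its markers. VIM was at a mean of 18261, NEFM at 16264, NEFL at 13195 and PAX2 at 63.1, and PTPRC, HBB, ALB, PECAM1, COL1A2 and INS were between 0.186 and 6.22.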

How the data were processed

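RNA of 2 Nuclear and 2 Cytoplasmic libraries had been aligned by the authors to hg38 with STAR and counted per gene with featureCounts 2.0.2 over exons and introns. Their annotation was GENCODE 34 with added NCBI genes, without readthrough transcripts and without stretches covered by several genes. The deposited value used here is a signal, the authors' DESeq2 mean normalized count over all 4 libraries. The 5 other numeric columns hold the authors' own comparison of cytoplasm with nucleus (fold change, its error, score and p-values) and were not used. The count test intended for single libraries was not run, because the table has no column per library.

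Members and gene lists were chosen with earlier results of these data known. Named genes were the 10 hosts, neighbours of a host in the order of lncRNA means, and the highest, lowest and missing genes of each list; overlapping genes were named after their values were seen. Spans, exons and canonical transcripts came from GENCODE 44, a later release than the authors', matched by identifier without version (2 of 10 hosts had the same version), and for 99.4% of lncRNA genes with a mean above 0. RefSeq gave promoters and further snoRNA genes, the latter without strand. Scripts (Python, pandas, numpy, scipy, matplotlib) were tested on simulated data. The study's methods give a minimum and an average read depth for these libraries, but not the depth of each one. Size factors implied by the steps ran from 0.755 to 1.34. An overlapping gene of 1 host is not reported here.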

Additional observations from a re-analysis of the deposited data

How the results depend on the processing

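No paired analysis was possible because each level pools all 4 libraries. This also kept the edgeR fit, DESeq2, the low-count filter, the replicate block and the fits leaving out a library from being run. Whether a single library or fraction decides a level was not examined. The number of hosts in the highest 5% of lncRNA genes was 10 with means of 0 included and per kb of exons, 7 among genes with a mean of at least 10, and 6 with the limit at 1%. The hosts' share of the summed lncRNA means was 2.98% without the gene of the highest mean, 6.24% without the 4 highest (chosen after seeing the data), and 0.544% per kb of exons. The ratio of the highest to the lowest host, 20.4 per kb of exons, was 72.1 with exons shared on either strand left out, 100.03 with those on the same strand left out, 8.77 per kb of gene span and 32.4 with no length. It was 12.6 with RefSeq spans and 373.1 with canonical transcripts, both chosen after seeing the data. The number of hosted snoRNA genes with a mean above 0 could only be 0 under every overlap and minimum tried, because none of them had a row. Hosts with a pyrimidine run beginning within 10 bases of the start numbered 6 of 8. Their number fell to 3 when the run had to begin exactly at the start. It was 1 with at least 7 pyrimidines, which 9.08% of all promoters had. At canonical transcript starts, chosen after seeing the data, it was 4 of 10, against 18.2% of lncRNA genes. The cause of these changes was not tested beyond the lengths and limits themselves.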

Other observations

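snoRNA genes that lie outside other genes had rows, unlike those of the hosts, but most of these rows were at 0. Of the 187 that shared no base with another gene, 20 had a mean above 0. The table listed 380 snoRNA rows in all, 43 of them above 0. SNORD3A, a gene for the U3 snoRNA, which acts in processing of the ribosomal RNA precursor and has its own promoter, had the highest mean of them at 43512. SNORD3B-2 had 214.3, SNORD3C had 85.2 and SNORD3B-1 had 45.3. These 4 are near-identical copies, and how reads were divided among them is uncertain. SNORD13, also transcribed from its own promoter, had a mean of 59.5. These genes were named after their values were seen.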
